A study of Mus musculus with 10 samples.

Results

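Il1r2, Casp1, Casp4 and Naip5 are 4 genes of the interleukin-1 and inflammasome pathways, followed here in regulatory T cells of the mouse spleen. They were taken by their gene symbols, with the brightest probe set of each gene, as 4 of the 19938 genes that the arrays measured with 1 symbol per probe set. They were chosen by their array levels, which earlier results of these data showed to be higher in FR3 Klrg1- than in FR1, so that comparison is given as a description and was not tested for them. Each of the 4 genes had 1 probe set.

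Regulatory T cells (Tregs) restrain immune responses and carry the transcription factor Foxp3. They were sorted as CD4+ cells with a red fluorescent reporter (RFP) at Foxp3 from female C57BL/6 mice of 9 to 14 weeks, and their RNA (20 to 50 ng a sample, amplified) was read on Mouse Gene ST 1.0 arrays of Affymetrix. All groups share this sort, and they differ by CD62L (a lymph node homing receptor), CD69 (an activation and retention marker) and Klrg1 (an inhibitory receptor of late effector lymphocytes). FR3 cells were CD62Llo and CD69+, and came with Klrg1 (FR3 Klrg1+, 1 array) or without it (FR3 Klrg1-, 4 arrays). FR2 cells (2 arrays) were CD62Llo without CD69 or Klrg1, and FR1 cells (2 arrays) were CD62Lhi without CD69 or Klrg1. The labels call the arrays of a group biological replicates and do not say whether animals were pooled. An additional array was titled FR3 but carried the marker text of FR1, and it was left out of every comparison.

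Interleukin-1 acts through a receptor that signals by an intracellular TIR domain. The decoy receptor encoded by Il1r2 binds the same cytokine but has no TIR domain, so it takes up interleukin-1 without signalling. Inflammasomes are protein assemblies that activate inflammatory caspases: Naip5 recognises bacterial flagellin and joins the adaptor Nlrc4 to activate caspase-1, which matures interleukin-1 beta and interleukin-18 and opens the pore former gasdermin D. Casp4 encodes the mouse caspase (also called caspase-11) that recognises bacterial lipopolysaccharide in the cytosol. Il1r2 is known from activated Tregs, while the inflammasome genes are best known from myeloid cells.

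The 4 genes lie at 3 places in the genome. Casp1 and Casp4 are direct neighbours on chromosome 9, followed by Casp12. Naip5 lies on chromosome 13 between its paralogs Naip2 and Naip6, and Il1r2 on chromosome 1 next to Il1r1. Because the genes were in one order over the Treg subsets, the 250 bases before the start site of each are shown (RefSeq, GRCm38.p6, 5′ to 3′ on the gene's strand). They come from chr1:40085843-40086092 (+) for Il1r2, chr9:5298267-5298516 (+) for Casp1, chr9:5308599-5308848 (+) for Casp4, where a second listed start lay close by, and chr13:100247337-100247586 (-) for Naip5. Capitals mark the 1 motif match found.
Il1r2: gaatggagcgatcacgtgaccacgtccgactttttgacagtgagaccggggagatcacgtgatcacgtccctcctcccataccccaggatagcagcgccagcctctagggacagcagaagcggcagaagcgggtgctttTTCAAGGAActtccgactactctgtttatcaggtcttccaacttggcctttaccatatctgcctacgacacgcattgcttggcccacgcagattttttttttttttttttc
Casp1: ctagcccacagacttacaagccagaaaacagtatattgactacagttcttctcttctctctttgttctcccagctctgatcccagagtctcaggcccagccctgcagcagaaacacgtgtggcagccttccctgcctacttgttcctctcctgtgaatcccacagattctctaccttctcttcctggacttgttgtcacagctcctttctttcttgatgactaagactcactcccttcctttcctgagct
Casp4: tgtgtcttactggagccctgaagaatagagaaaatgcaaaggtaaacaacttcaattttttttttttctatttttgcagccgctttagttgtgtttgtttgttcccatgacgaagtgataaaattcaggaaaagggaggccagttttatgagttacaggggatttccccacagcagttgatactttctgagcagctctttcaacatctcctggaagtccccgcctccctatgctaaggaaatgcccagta
Naip5: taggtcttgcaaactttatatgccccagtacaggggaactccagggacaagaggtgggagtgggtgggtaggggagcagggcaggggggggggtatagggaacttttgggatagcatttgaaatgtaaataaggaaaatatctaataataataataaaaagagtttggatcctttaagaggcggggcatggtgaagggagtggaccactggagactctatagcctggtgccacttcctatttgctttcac

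The motifs searched on both strands were TGANTCA (AP-1), TTCNNNGAA (STAT) and 1 motif each of NF-kB and IRF. Il1r2 held TTCNNNGAA at bases -111 to -103 before the start site, a match that 7.0% of 32851 promoters of that length also held. No other match to the motifs as searched was in any of these 4 windows. Of all promoters, 6.7% (AP-1), 0.4% (NF-kB) and 3.0% (IRF) held these motifs. Each motif was searched in 1 form only, and sites that differ from it by a letter were not looked for. The search therefore does not show that the 4 windows, that of Casp4 included, lack NF-kB or other sites.

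By their correlation over all 35556 probe sets the arrays split into 2 sets that cut across FR3 Klrg1-. Set 1 held FR3 Klrg1- replicates 1 and 2, FR2 and FR1, and set 2 held FR3 Klrg1+, FR3 Klrg1- replicates 3 and 4, and the array in no group. Arrays correlated at 0.972 to 0.992 within a set and at 0.901 to 0.921 between sets. The labels do not say what separates the sets. Levels below are RMA log2 intensities, and comparisons were made within a set. Array medians lay between 6.15 and 6.31.

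The sorted cells were Tregs by their transcripts. Foxp3 averaged 10.67 in FR3 Klrg1-, 10.81 in FR2 and 10.79 in FR1 of set 1, and 9.64 in FR3 Klrg1+ and 9.79 in FR3 Klrg1- of set 2. Markers of cells that are known for these 4 genes were low on all arrays: the neutrophil list (14 of 14 measured) averaged 4.78 to 5.07, and the macrophage and monocyte list (18 of 19 measured) 5.01 to 5.62, against 11.03 to 11.46 for the T cell list (8 of 9 measured). In set 1 the macrophage and monocyte list averaged 5.07 to 5.10 in FR3 Klrg1-, 5.08 to 5.10 in FR2 and 5.01 to 5.06 in FR1. None of the neutrophil, macrophage or monocyte markers passed in limma in the 3 comparisons of set 1. Other markers did pass there. In FR3 Klrg1- against FR2, 1 of 5 NK cell markers (Klrb1c), 1 of 8 T cell markers (Zap70) and 2 of 7 Treg markers (Ctla4 and Tnfrsf18) rose. In FR3 Klrg1- against FR1, Klrb1c, the B cell marker Cd22, the T cell markers Cd3e and Zap70 and the Treg markers Ctla4, Ikzf2, Tnfrsf18 and Cd4 rose, while Cd79a (B cells), Bst2 (dendritic cells), Cd8b1 (CD8 T cells) and Il2ra (Tregs) fell. In FR2 against FR1, Ikzf2 rose and Il2ra fell. The part of these markers in the values of the 4 genes was not tested. Lyz2, a myeloid lysozyme, averaged 4.92 in FR3 Klrg1-, 4.51 in FR2 and 4.60 in FR1, and S100a8, a neutrophil protein, averaged 4.49, 4.43 and 4.40 in the same groups.

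**Figure D1:**
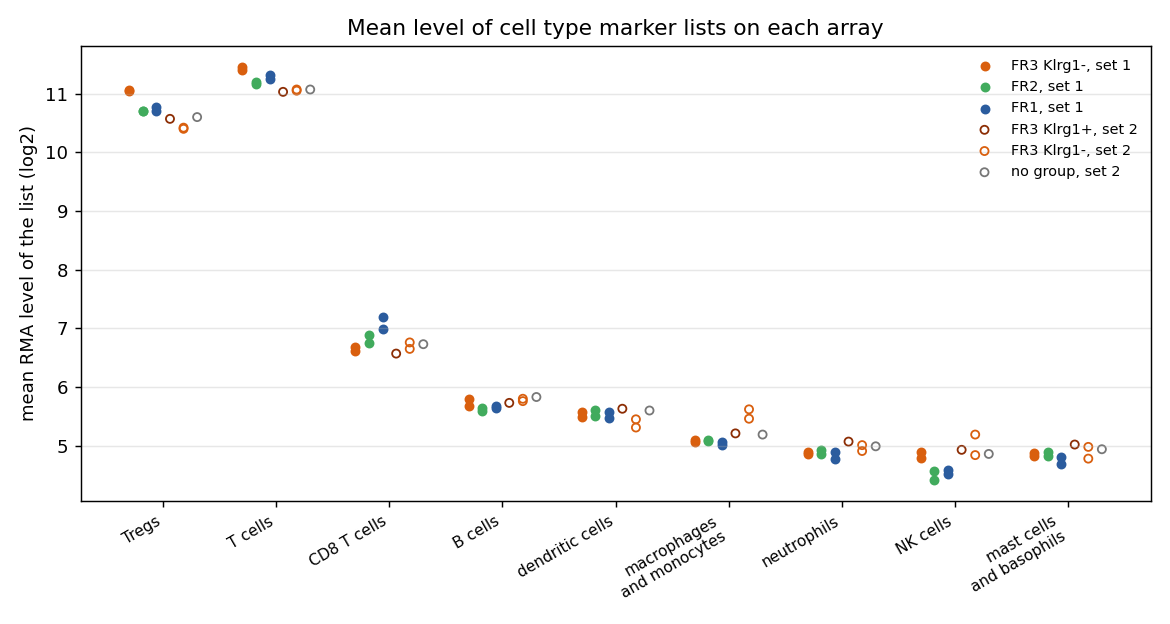
Mean RMA level (log2) of 9 lists of cell type markers on each array (filled, array set 1; open, array set 2; grey, the array in no group). The Treg and T cell lists stand above 10 on every array, and the neutrophil, macrophage and monocyte lists lie below 6 on every array.

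Within set 1 all 4 genes stood highest in FR3 Klrg1-, lower in FR2 and lowest in FR1. That FR3 Klrg1- stood above FR1 follows from the choice of the genes. The share of all genes in this order was not counted, so the order is given as a description. Il1r2, the decoy receptor, was at 9.29 and 9.81 in FR3 Klrg1-, against 7.19 and 6.90 in FR2 and 5.71 and 5.75 in FR1. Naip5, the flagellin sensor, was at 9.09 and 8.94 in FR3 Klrg1-, against 7.07 and 7.42 in FR2 and 5.16 and 5.86 in FR1. For both genes the subset with CD69 stood well apart from both subsets without it. For Naip5 the FR2 subset stood about as far from FR1, with 49.5% of the whole difference present in FR2.

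The caspase genes followed the same order with another spacing. Casp4 was at 9.52 and 9.39 in FR3 Klrg1-, against 8.66 and 8.48 in FR2 and 7.14 and 6.89 in FR1. Casp1 was at 8.34 and 8.31 in FR3 Klrg1-, against 8.0 and 7.78 in FR2 and 6.56 and 6.22 in FR1. The FR2 arrays of Casp1 lay close below those of FR3 Klrg1- and far above those of FR1.

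FR3 Klrg1- exceeded FR1 by 3.82 for Il1r2 (14.15-fold), 3.50 for Naip5 (11.31-fold), 2.44 for Casp4 (5.43-fold) and 1.94 for Casp1 (3.82-fold) on the log2 scale in set 1. These values chose the genes and are a description. In order of this difference Il1r2 stood 2nd, Naip5 5th, Casp4 23rd and Casp1 48th of 19938 genes. In FR1, Naip5 replicate 1 stood at percentile 24.1 of the genes on its array and replicate 2 at 42.7, and Il1r2 at 36.3 and 40.1, so both genes were dim there. Replicate 1 of Naip5 lay under percentile 25 of the genes, taken here as background. Over all probe sets of that array percentile 25 was 4.96, and Naip5 (5.16) lay above it. The difference, rank and share given for Naip5 thus rest in part on a value at or near background. Casp1 (50.1 and 54.2) and Casp4 (59.4 and 62.6) were nearer the middle of the genes.

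**Figure D2:**
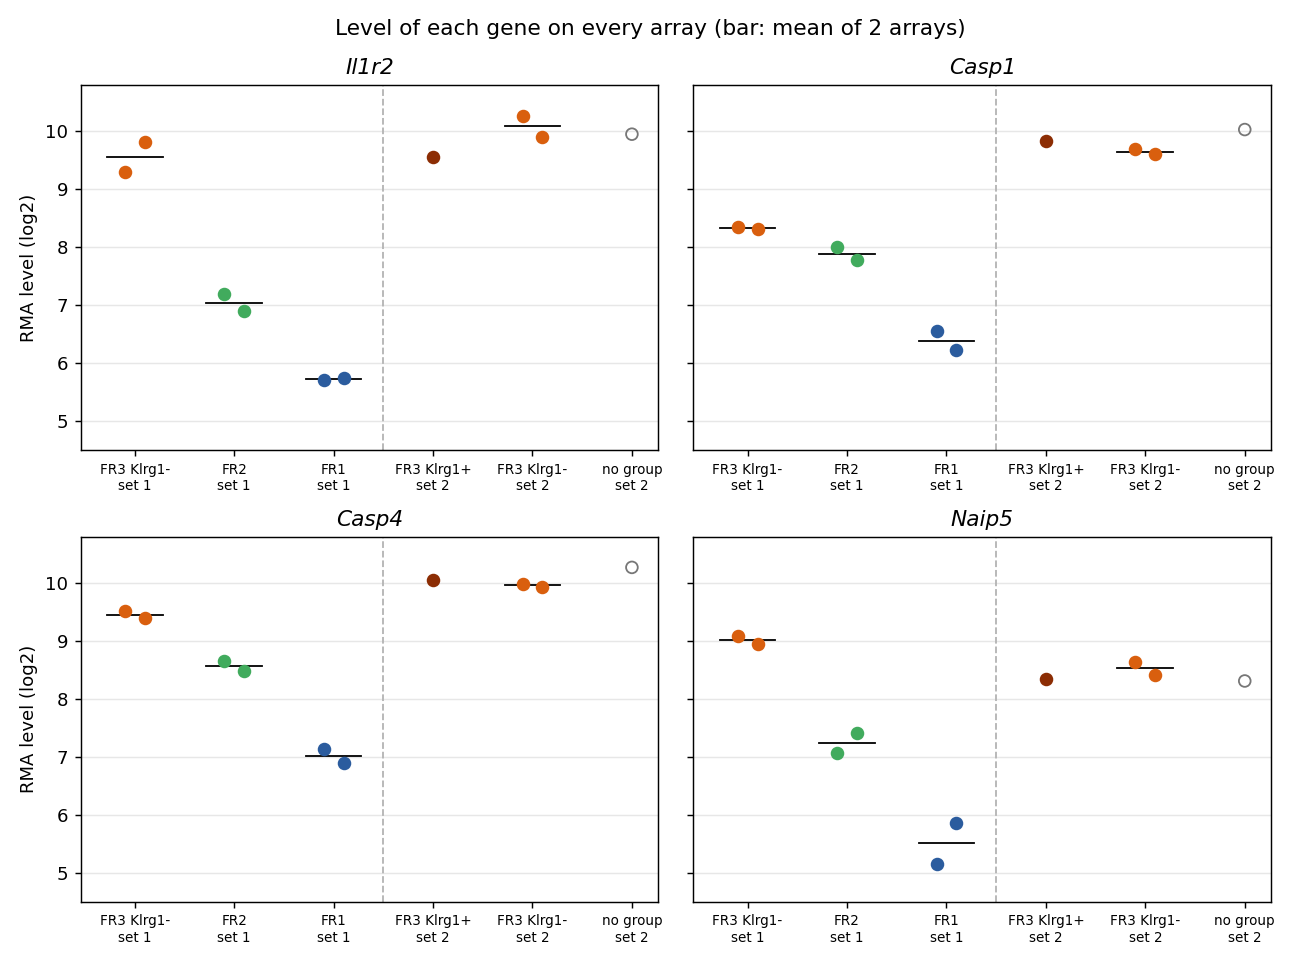
RMA level (log2) of Il1r2, Casp1, Casp4 and Naip5 on each of the 10 arrays, by group and array set (points, arrays; bars, mean of 2 arrays; open point, the array in no group). In set 1 the FR3 Klrg1- arrays stand above FR2 and the FR2 arrays above FR1 for each gene, and in set 2 FR3 Klrg1+ lies near FR3 Klrg1-.

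FR2 against FR1 compares CD62Llo with CD62Lhi Tregs that lack CD69 and Klrg1, and it shares the FR1 arrays with the comparison that chose the genes. All 4 genes rose in FR2. Casp4 rose by 1.55 ± 0.14 (log2, SE, n = 2 and 2), a 2.93-fold difference (limma with the array set as a covariate, Benjamini-Hochberg adjusted p = 7.88e-06), and Casp1 rose by 1.50 ± 0.14 (2.83-fold, adjusted p = 1.66e-05). Naip5 rose by 1.73 ± 0.20 (3.32-fold, limma adjusted p = 8.18e-05) and Il1r2 by 1.32 ± 0.18 (2.49-fold, limma adjusted p = 3.98e-04). Over all genes 4.26% were called in either direction and 1.96% higher. The low FR1 values on these arrays took part in the choice of the genes, so the p-values are not independent of it and nothing is read from the 4 calls beside that share. The 4 log2 differences had overlapping 95% intervals, from 0.94 to 1.70 for Il1r2 and from 1.31 to 2.15 for Naip5. Without the array set in the fit the differences were the same and none of the 4 passed (limma adjusted p = 0.262 for Il1r2, 0.671 for Casp1, 0.0575 for Casp4 and 0.104 for Naip5).

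FR3 Klrg1- against FR2 compares CD69+ with CD69- Tregs among CD62Llo cells without Klrg1, and it shares the FR3 Klrg1- arrays with the comparison that chose the genes. Il1r2 rose by 2.51 ± 0.18 (log2, SE, n = 2 and 2 in set 1; 5.68-fold, limma adjusted p = 1.70e-06) and Naip5 by 1.77 ± 0.20 (3.40-fold, limma adjusted p = 8.53e-05). Casp4 rose by 0.89 ± 0.14 (1.85-fold, limma adjusted p = 0.00129). Casp1 was 0.43 ± 0.14 higher (1.35-fold), which did not pass (limma adjusted p = 0.117, 95% interval 0.13 to 0.74). Over all genes 4.75% were called in either direction and 2.81% higher. The high FR3 Klrg1- values on these arrays took part in the choice of the genes, so here too nothing is read from the 3 calls beside that share. Without the array set in the fit, where the 4 FR3 Klrg1- arrays of both sets are averaged, Il1r2 passed, and Casp1 (1.10, limma adjusted p = 0.383), Casp4 (1.14, limma adjusted p = 0.0773) and Naip5 (1.52, limma adjusted p = 0.0667) did not.

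**Figure D3:**
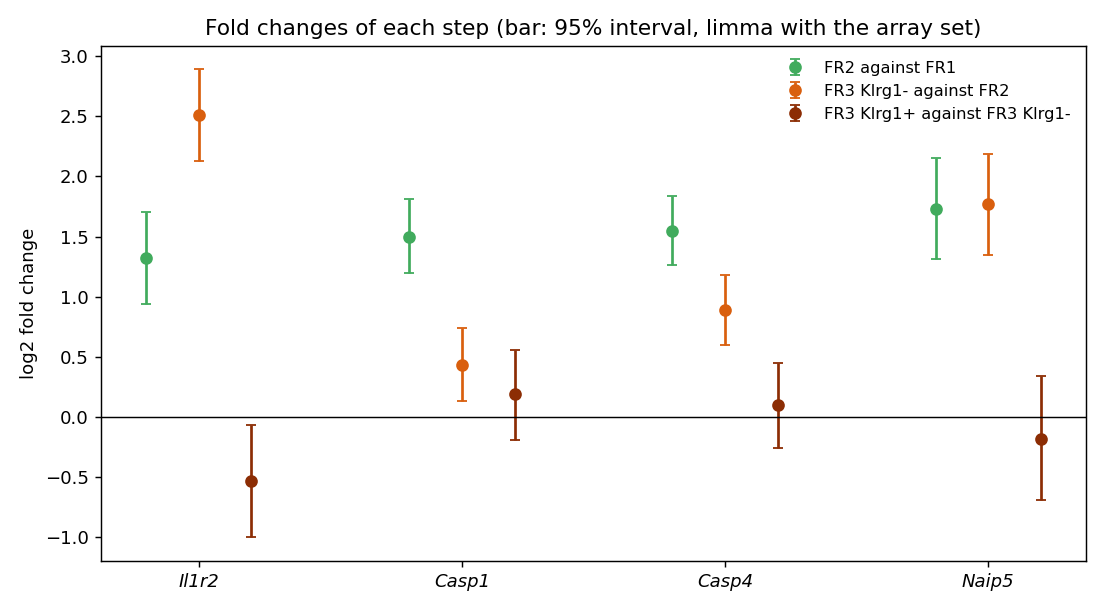
Log2 fold change of each gene in 3 comparisons, FR2 against FR1, FR3 Klrg1- against FR2 and FR3 Klrg1+ against FR3 Klrg1- (points, estimate; bars, 95% interval from limma with the array set). Il1r2 shows 1.32 in the first comparison and 2.51 in the second, Casp1 shows 1.50 and 0.43, and the intervals of the third comparison span 0 for Casp1, Casp4 and Naip5.

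The share of the whole difference already present in FR2 was 34.4% for Il1r2, 49.5% for Naip5, 63.6% for Casp4 and 77.6% for Casp1. The second step (FR3 Klrg1- minus FR2) less the first (FR2 minus FR1) was tested in the same fit, a contrast added after the values were seen. It was -1.07 ± 0.25 for Casp1 (log2, SE, limma adjusted p = 0.0341), which restates the spacing of the arrays above and is no independent evidence of it. It was 1.19 ± 0.31 for Il1r2 (limma adjusted p = 0.0549), -0.66 ± 0.24 for Casp4 (limma adjusted p = 0.178, 95% interval -1.17 to -0.16) and 0.04 ± 0.34 for Naip5 (limma adjusted p = 0.983, 95% interval -0.69 to 0.76). Of all genes 2.67% passed, 1.6% above 0 and 1.07% below it. The Casp1 call was lost without FR1 replicate 2, without either FR2 array and without FR3 Klrg1- replicate 1 or 2 (limma adjusted p = 0.083 to 0.515), and without the array set. The Il1r2 contrast passed within set 1 alone and without FR3 Klrg1- replicate 3 or 4 (limma adjusted p = 0.0255 each). It also passed, at 1.45, without FR3 Klrg1- replicate 1. The Il1r2 contrast did not pass without FR1 replicate 1 (1.21) or 2 (1.17), FR2 replicate 1 (1.49) or 2 (0.89) or FR3 Klrg1- replicate 2 (0.93). Nor did it pass without the array set (1.46).

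FR3 Klrg1+ against FR3 Klrg1- compares sorted CD69+ Tregs with and without Klrg1, in set 2. FR3 Klrg1+ has 1 array, so every call in this comparison, pathway genes included, borrows its spread from the other groups. Il1r2 was at 9.55 in FR3 Klrg1+, against 10.27 and 9.91 in FR3 Klrg1-. Casp1 was at 9.84 in FR3 Klrg1+, against 9.69 and 9.61 in FR3 Klrg1-. Casp4 was at 10.06 in FR3 Klrg1+, against 9.99 and 9.93 in FR3 Klrg1-. Naip5 was at 8.35 in FR3 Klrg1+, against 8.64 and 8.42 in FR3 Klrg1-.

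The FR3 Klrg1+ array lay below both FR3 Klrg1- arrays for Il1r2 and Naip5 and above both for the caspases. None of these differences passed. The difference was -0.53 ± 0.22 for Il1r2 (log2, SE, n = 1 and 2 in set 2; limma adjusted p = 0.185, 95% interval -1.0 to -0.07) and -0.18 ± 0.24 for Naip5 (limma adjusted p = 0.739, 95% interval -0.69 to 0.34). It was 0.19 ± 0.18 for Casp1 (limma adjusted p = 0.606, 95% interval -0.19 to 0.56) and 0.10 ± 0.17 for Casp4 (limma adjusted p = 0.801, 95% interval -0.26 to 0.45). Of all genes 4.96% were called in either direction. In this comparison 2 of the 18 macrophage and monocyte markers rose and 4 fell, and their mean level was 5.21 in FR3 Klrg1+, against 5.46 and 5.62 in FR3 Klrg1-. The part of this difference in the values of the 4 genes was not tested.

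The level of FR3 Klrg1- cells depended on the array set, most of all for Casp1. Casp1 averaged 9.65 ± 0.06 in set 2 and 8.33 ± 0.02 in set 1 (SD, n = 2 each), a difference of 1.32. For Il1r2 this difference was 0.54, for Casp4 0.50 and for Naip5 -0.49, while the median absolute difference over all genes was 0.28. Tests are therefore made within a set.

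Of the closest relatives of the 4 genes, Naip6 and Naip2 stood in the same order in set 1. Casp12 lay too low to show a pattern, and Naip1 and Il1r1 had no probe set named for them alone. Naip6, a flagellin sensor next to Naip5, was at 8.18 and 8.28 in FR3 Klrg1-, against 7.02 and 6.85 in FR2 and 5.24 and 5.62 in FR1, in the same order. It rose by 1.51 ± 0.15 in FR2 against FR1 (limma adjusted p = 2.40e-05) and by 1.29 ± 0.15 in FR3 Klrg1- against FR2 (limma adjusted p = 1.31e-04). Naip2, which in the mouse recognises a rod protein of bacterial secretion systems, was at 7.89 and 8.13 in FR3 Klrg1-, against 7.51 and 7.34 in FR2 and 6.31 and 6.43 in FR1.

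Naip2 rose by 1.06 ± 0.17 in FR2 against FR1 (limma adjusted p = 0.00157) and was 0.59 ± 0.17 higher in FR3 Klrg1- against FR2 (limma adjusted p = 0.0598). The Naip genes are close paralogs, and how far their probes read each other's transcripts was not tested, so the separate values of Naip5, Naip6 and Naip2 are uncertain. Casp12, the neighbour of Casp4, stayed at 3.14 to 3.46 on all arrays, below percentile 25 of each, and had no call.

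**Figure D4:**
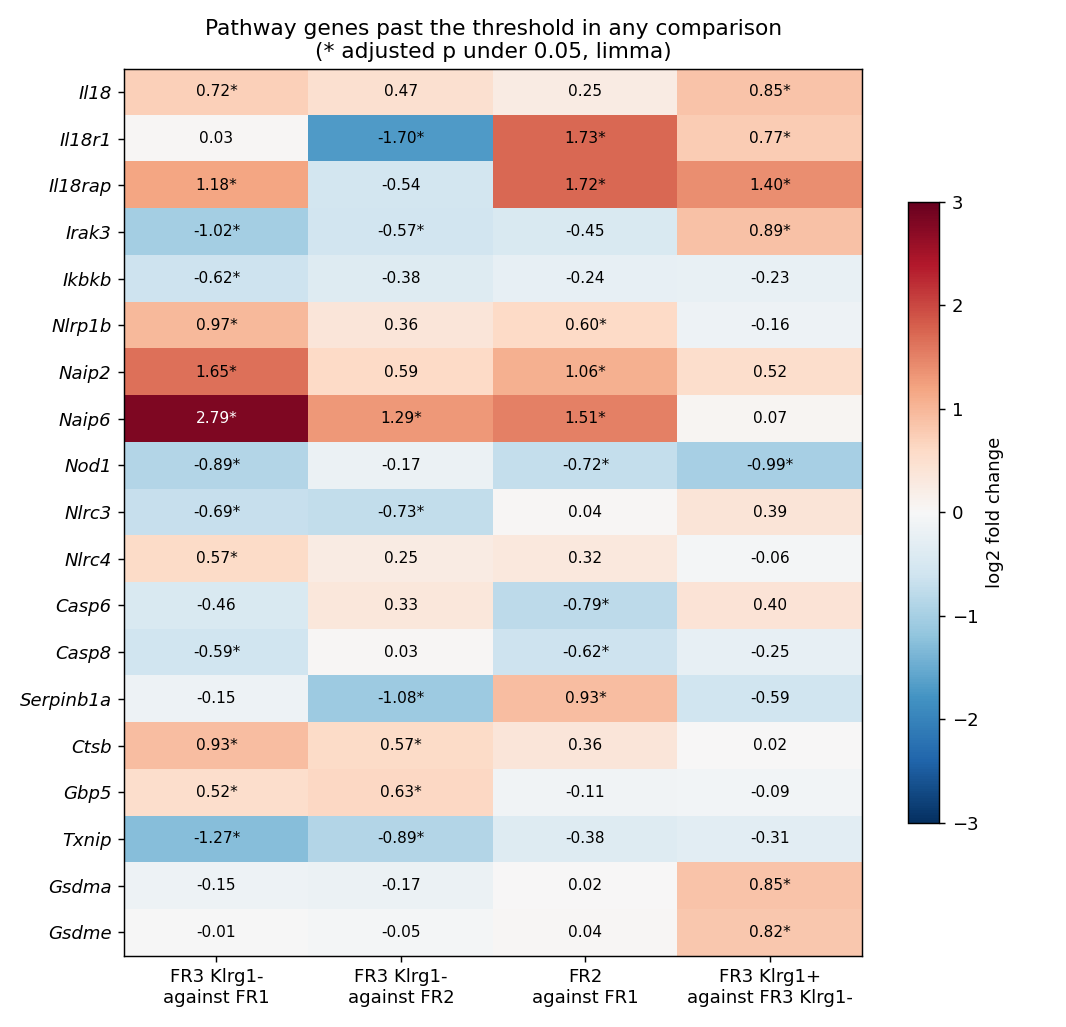
Log2 fold change (colour and number) of the 19 pathway genes past the threshold in at least 1 of 4 comparisons, the 4 chosen genes left out (asterisk, limma adjusted p under 0.05). Naip6 and Naip2 have the highest values in FR3 Klrg1- against FR1, and Il18r1 changes sign between FR2 against FR1 (1.73) and FR3 Klrg1- against FR2 (-1.70).

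The other genes of the interleukin-1 and inflammasome pathways were taken from 6 lists with 96 genes, 85 of them with a named probe set. In FR2 against FR1, 6 of the 85 rose (7.06%, beside 1.96% of all genes) and 3 fell (3.53%, beside 2.3%). The 6 were Naip2 and Naip6, paralogs of the chosen Naip5, the receptor pair Il18r1 and Il18rap, and Nlrp1b and Serpinb1a. Those that fell were Nod1, Casp6 and Casp8. In FR3 Klrg1- against FR2, 3 rose (3.53%, beside 2.81%) and 5 fell (5.88%, beside 1.94%). In FR3 Klrg1- against FR1, 8 rose (9.41%, beside 4.39%) and 6 fell (7.06%, beside 3.79%). In FR3 Klrg1+ against FR3 Klrg1-, 6 rose (7.06%, beside 2.14%) and 1 fell (1.18%, beside 2.82%). The median log2 difference of the 85 was between -0.01 and 0.03 in these comparisons, against 0.00 to 0.02 over all genes. The lists were drawn up with earlier results known and hold related genes, so nothing is read from these shares.

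Among the 17 inflammasome sensors and adaptors, Nlrc4, the adaptor of the Naip sensors, was at 4.91 and 5.06 in FR3 Klrg1-, against 4.81 and 4.65 in FR2 and 4.45 and 4.37 in FR1. Nlrc4 was called higher in FR3 Klrg1- against FR1 (limma adjusted p = 0.0153). FR1 and FR2 lay under percentile 25 of the arrays (4.94 to 5.01 in set 1) and FR3 Klrg1- near it, so no fold is given. For the pathway genes this percentile was taken over all probe sets of an array, while that of Naip5 above was taken over genes. On FR1 replicate 1 the cut-off over genes lay higher, so pathway levels near the cut-off used here may lie under it. The Nlrc4 call was lost without any 1 of the 4 arrays compared. Pycard, the adaptor ASC, was at 7.83 and 8.08 in FR3 Klrg1-, against 8.39 and 8.45 in FR2 and 8.40 and 8.32 in FR1, and did not pass in either step (limma adjusted p = 0.881 and 0.0573). Nlrp1b, a sensor of bacterial proteases, rose by 0.60 ± 0.14 in FR2 against FR1 (limma adjusted p = 0.0231) and by 0.97 ± 0.14 in FR3 Klrg1- against FR1 (limma adjusted p = 2.81e-04). Its call in FR2 against FR1 was lost without FR1 replicate 1 or 2 or FR2 replicate 1, and with quantile normalization.

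Nod1, a sensor of bacterial cell wall, fell by 0.72 ± 0.13 in FR2 against FR1 (limma adjusted p = 0.00535) and by 0.99 ± 0.16 in FR3 Klrg1+ against FR3 Klrg1- (limma adjusted p = 0.00319). The first of these calls was lost without FR1 replicate 2 or either FR2 array. Nlrc3, an inhibitory member of the family, fell by 0.73 ± 0.13 in FR3 Klrg1- against FR2 (limma adjusted p = 0.00436), a call lost without FR2 replicate 1 or FR3 Klrg1- replicate 2. Nlrp3 lay at 5.09 to 5.44 on all arrays and had no call.

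Of the 11 interleukin-1 family ligands, Il18 was at 4.98 and 4.82 in FR3 Klrg1-, against 4.13 and 4.22 in FR1. It was called (limma adjusted p = 0.00233), but FR1 lay under percentile 25 of its arrays and FR3 Klrg1- at about that level, so no fold is given. In set 2 it rose by 0.85 ± 0.16 in FR3 Klrg1+ against FR3 Klrg1- (limma adjusted p = 0.00925), with 6.66 in FR3 Klrg1+, against 5.94 and 5.69 in FR3 Klrg1-. Il1a, Il1b and the receptor antagonist Il1rn, which competes with interleukin-1 for its receptor, had no call in any of the 4 comparisons. Il1a lay at 3.62 to 4.77 on all arrays, under percentile 25 of each. Il1b lay at 5.55 to 6.06, under the median of each array, and Il1rn at 5.46 to 6.56. At such low levels a missing call does not show that a gene is unchanged.

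Of the 9 interleukin-1 family receptors listed, 7 had a probe set named for 1 gene. The signalling receptor Il1r1 and Il1rl1 had none in the annotation, so their levels are not given. Both interleukin-18 receptor chains were higher in FR2 than in FR1. Il18r1, the binding chain, was at 7.77 and 8.02 in FR3 Klrg1-, against 9.55 and 9.63 in FR2 and 7.72 and 8.01 in FR1. It rose by 1.73 ± 0.14 in FR2 against FR1 (limma adjusted p = 4.54e-06) and fell by 1.70 ± 0.14 in FR3 Klrg1- against FR2 (limma adjusted p = 5.65e-06). On FR3 Klrg1- replicates 3 and 4, in set 2, Il18r1 was at 9.35 and 9.35, so its level in these cells differed between the array sets. Set 2 held no FR2 array, so whether the fall is also present there was not tested. Il18rap, the signalling chain, rose by 1.72 ± 0.17 in FR2 against FR1 (limma adjusted p = 2.07e-05), and its difference in FR3 Klrg1- against FR2 was -0.54 ± 0.17 (limma adjusted p = 0.0957). The difference of Il18r1 in FR3 Klrg1- against FR1 was 0.03 ± 0.14 (limma adjusted p = 0.951). Il18rap was 1.18 ± 0.17 higher in that comparison (limma adjusted p = 2.49e-04). In FR3 Klrg1+ against FR3 Klrg1- it rose by 1.40 ± 0.21 (limma adjusted p = 0.00156) and Il18r1 by 0.77 ± 0.17 (limma adjusted p = 0.02), with 1 array of FR3 Klrg1+. The shared chain Il1rap, with which the signalling receptor and the decoy both pair, lay at 7.05 to 7.67 on all arrays and had no call.

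In the signal relay, Irak3, an inhibitor of signalling by these receptors, fell by 1.02 ± 0.14 in FR3 Klrg1- against FR1 (limma adjusted p = 1.86e-04) and rose by 0.89 ± 0.17 in FR3 Klrg1+ against FR3 Klrg1- (limma adjusted p = 0.00936). It was at 6.51 and 6.74 in FR3 Klrg1-, against 7.06 and 7.33 in FR2 and 7.60 and 7.68 in FR1. Ikbkb, a kinase of NF-kB activation, fell by 0.62 ± 0.13 in FR3 Klrg1- against FR1 (limma adjusted p = 0.00586), a call lost without FR1 replicate 2 or FR3 Klrg1- replicate 2. The other 17 of 19 relay genes had no call in any of the 4 comparisons.

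Of the 14 other caspases and regulators, 2 fell in FR2 against FR1. Casp8, the initiator caspase of death receptors, fell by 0.62 ± 0.13 in FR2 against FR1 (limma adjusted p = 0.0164) and Casp6, an effector caspase, fell by 0.79 ± 0.15 (limma adjusted p = 0.00679). Neither passed in FR3 Klrg1- against FR2. The call of Casp8 was lost without FR1 replicate 1 or 2 or FR2 replicate 1, and that of Casp6 without FR1 replicate 2 or FR2 replicate 1.

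Among the 17 genes of pores, processing and release, Gsdmd, the pore former that caspase-1 and Casp4 cleave, lay at 7.53 to 8.31 on all arrays and had no call. Ctsb, a lysosomal protease, rose by 0.57 ± 0.14 in FR3 Klrg1- against FR2 (limma adjusted p = 0.028), and Gbp5, an interferon-induced GTPase, by 0.63 ± 0.14 (limma adjusted p = 0.0154). Txnip, a thioredoxin inhibitor, fell by 0.89 ± 0.15 in FR3 Klrg1- against FR2 (limma adjusted p = 0.00281), and Serpinb1a, an inhibitor of granule proteases, fell by 1.08 ± 0.18 (limma adjusted p = 0.00219) after a rise of 0.93 ± 0.18 in FR2 against FR1 (limma adjusted p = 0.00702). Serpinb1a was at 4.84 and 4.46 in FR3 Klrg1-, against 5.67 and 5.79 in FR2 and 4.53 and 5.07 in FR1, so both FR3 Klrg1- arrays and FR1 replicate 1 lay under percentile 25 and the size of these changes is uncertain. Without FR2 replicate 1 or 2, or FR3 Klrg1- replicate 1 or 2, the calls of Ctsb and Gbp5 were lost. That of Txnip was lost without FR2 replicate 2 or FR3 Klrg1- replicate 1, and the rise of Serpinb1a without FR1 replicate 1 or either FR2 array. In FR3 Klrg1+ against FR3 Klrg1- the gasdermins Gsdma (0.85 ± 0.19, limma adjusted p = 0.018) and Gsdme (0.82 ± 0.21, limma adjusted p = 0.0376) rose, and the call of Gsdme was lost without either FR2 array or FR3 Klrg1- replicate 4, and with the mean of all probe sets. Gsdma was at 5.43 in FR3 Klrg1+, against 4.83 and 4.34 in FR3 Klrg1-, both under percentile 25, so the size of its change is uncertain. Without the array set in the fit, only the pathway calls of Il18rap and Naip6 were kept in FR2 against FR1. In FR3 Klrg1- against FR1 those of Il18rap, Irak3, Nlrp1b, Nlrc3, Naip2, Naip6 and Txnip were kept. All other pathway calls were lost.

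Over the 6 arrays of set 1 the 4 genes correlated with each other at 0.873 (Il1r2 and Casp1) to 0.987 (Casp1 and Casp4), as a description over arrays that share a set and that chose the genes. Among the 860 genes that ranged over at least 1 on these arrays, those most like Il1r2 were the co-inhibitory receptors Lag3 (r = 0.9961) and Pdcd1 (0.9956), the phosphatase Cdc14a (0.9954), the integrin chain Itgb8 (0.9938) and Ybx3 (0.9937). Pdcd1 averaged 10.42 in FR3 Klrg1-, 8.75 in FR2 and 7.74 in FR1. Those most like Casp1 were Nucb2 (0.9891), the membrane protease St14 (0.9889), the phosphatase Ptpn13 (0.9881), Ttn (0.9871) and Casp4 itself (0.9867).

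For Casp4 the nearest genes were Nucb2 (0.9982), Cntln (0.9932), the kinesin Kif13a (0.9920), Myo1h (0.9900) and Ttn (0.9898). For Naip5 they were the transcription factor Nfil3 (0.99996), the actin gene Actg2 (0.9979), the growth factor precursor Grn (0.9967), the G protein subunit Gnaq (0.9947) and Ercc6l2 (0.9946). Nfil3 averaged 9.98 in FR3 Klrg1-, 9.08 in FR2 and 8.19 in FR1. In bulk RNA, more cells that carry a transcript and more transcript per cell cannot be told apart.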

How the data were processed

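Gene expression of sorted splenic Tregs was measured on 10 arrays. Per the labels and the submitters' processing notes, the table the authors deposited holds log2 intensities from RMA, corrected for background, normalized between arrays and summarised over probes. The RMA version, and whether all arrays were normalized together, are not given in the sources used here, so groups were compared within the 2 array sets. Of 35556 probe sets, 21789 had 1 gene symbol in the platform annotation, 1621 had several and 12146 were not named in it. The brightest probe set per symbol left 19938 genes.

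Arrays were grouped by their marker labels. They were split into 2 sets by average-linkage clustering of their correlation over all probe sets, where the plan had named all genes. A single limma model (limma 3.58.1, R 4.3.3) took the 9 grouped arrays, with the array set as a covariate. P-values were adjusted by Benjamini-Hochberg over all genes at a threshold of 0.05. FR3 Klrg1+ has 1 array and was assumed to vary like the other groups. FR3 Klrg1- is the only group in both sets, so differences within set 1 or set 2 take their size from that set alone. P-values measure the spread between these arrays, whose number limits the precision. Simulated data with known changes were used to test the code.

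The members and lists were chosen with earlier results of these data known. Named genes were the 4 members, their paralogs, pathway genes past the threshold (up to 4 higher and 4 lower per list and comparison), and the 5 genes most correlated with each member. Other genes given as levels were chosen for their role. Alternatives were a fit without the array set, 1 set alone, a replicate block, quantile normalization, a filter at percentile 40 of the mean, the mean of all probe sets, an intensity trend in the variance, a minimum change of 1 (log2), and omission of single arrays from groups with replicates. The contrast between the 2 steps was added after the data were seen. Promoter sequences are those of RefSeq (GRCm38.p6), which listed all 4 members. Genes whose probe sets carry several symbols or none were not analysed here.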

Additional observations from a re-analysis of the deposited data

Results flagged for a closer look

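The array in no group was used in no comparison and carried all 4 genes near the other arrays of its set. Its title said FR3, but the markers listed for it (CD62Lhi CD69- Klrg1-) define FR1. Il1r2 was at 9.95 on it, against 9.55 in FR3 Klrg1+ and 10.27 and 9.91 in FR3 Klrg1- of the same set. Casp1 was at 10.03, against 9.84 in FR3 Klrg1+ and 9.69 and 9.61 in FR3 Klrg1-. Casp4 was at 10.27, against 10.06 in FR3 Klrg1+ and 9.99 and 9.93 in FR3 Klrg1-. Naip5 was at 8.31, against 8.35 in FR3 Klrg1+ and 8.64 and 8.42 in FR3 Klrg1-. No FR1 array of set 2 was analysed here.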

How the results depend on the processing

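Without the array set in the fit, the calls in FR2 against FR1 were lost at the same log2 differences (1.32 for Il1r2, 1.50 for Casp1, 1.55 for Casp4 and 1.73 for Naip5), as were those of Casp4 (1.14) and Naip5 (1.52) in FR3 Klrg1- against FR2. The described differences of FR3 Klrg1- from FR1 were then 4.09 for Il1r2, 2.60 for Casp1 and 2.69 for Casp4, and the contrast between the steps was -0.41 for Casp1 and -0.21, of turned sign, for Naip5. Pathway calls numbered 2 in FR2 against FR1, 0 in FR3 Klrg1- against FR2 (limma, 2330 of all genes at an unadjusted p under 0.05), 0 in FR3 Klrg1+ against FR3 Klrg1- (limma, 2084 of all genes) and 7 in FR3 Klrg1- against FR1. The cause was not tested. Within set 1 alone, and with the replicate block, FR3 Klrg1- against FR2 gave 14 pathway calls, and Il1r2 passed in the contrast between the steps (1.19). It also passed at 1.19 without genes under percentile 40 and with an intensity trend. With a minimum change of 1 (log2), pathway calls numbered 4, 3, 1 and 5 in FR2 against FR1, FR3 Klrg1- against FR2, FR3 Klrg1+ against FR3 Klrg1- and FR3 Klrg1- against FR1.

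The replicate numbers were not shown to pair the arrays: their deviations correlated at 0.18 (FR2 and FR1), 0.14 (FR3 Klrg1- and FR1) and 0.02 (FR3 Klrg1- and FR2). With the replicate block Casp1 passed in FR3 Klrg1- against FR2 (0.43, limma adjusted p = 0.0416), and beside this and Il1r2 in the contrast between the steps the block changed no call of the 4 genes. Calls over all genes ran over the alternatives from 52 to 1669 in FR2 against FR1 (850 as reported), 55 to 1586 in FR3 Klrg1- against FR2 (948), 22 to 1553 in FR3 Klrg1+ against FR3 Klrg1- (989), 439 to 2355 in FR3 Klrg1- against FR1 (1632) and 9 to 1187 in the contrast between the steps (533). No paired analysis was possible because the groups share no replicate number within set 2 for FR3 Klrg1+ against FR3 Klrg1-.

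Leaving out each array in turn changed no call of the 4 genes in the 3 tested comparisons. FR2 against FR1 gave 1.17 to 1.47 for Il1r2, 1.33 to 1.67 for Casp1, 1.43 to 1.67 for Casp4 and 1.38 to 2.08 for Naip5. The described differences of FR3 Klrg1- from FR1 ran from 3.56 to 4.08 for Il1r2, 1.77 to 2.10 for Casp1, 2.32 to 2.56 for Casp4 and 3.15 to 3.85 for Naip5. The contrast between the steps ran from 0.89 to 1.49 for Il1r2, -1.29 to -0.85 for Casp1 and -0.32 to 0.39 for Naip5, whose sign turned without FR1 replicate 2 (-0.32), FR2 replicate 1 (-0.32) and FR3 Klrg1- replicate 1 (-0.04). Pathway calls ran from 4 to 11 in FR2 against FR1, 4 to 14 in FR3 Klrg1- against FR2, 6 to 10 in FR3 Klrg1+ against FR3 Klrg1- and 10 to 17 in FR3 Klrg1- against FR1, and were 4 without FR2 replicate 1 in the first and without either FR2 array or FR3 Klrg1- replicate 1 or 2 in the second, which had 14 without FR3 Klrg1- replicate 3 or 4.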
